A study of Mus musculus with 4 samples.

Results

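Feedback inhibitors and output genes of the RAS-MAPK pathway were compared between a JQ1-resistant and a JQ1-sensitive line of mouse lymphoma cells. The members were 10 genes given by symbol, Spred1, Spred2, Spry1, Spry2, Dusp2, Dusp4, Dusp5, Dusp6, Kcnn4 and Egr1, and 7 of them were found among the 16591 genes of the expression table. Spry1, Spry2 and Dusp4 were not analysed here. Both lines are Eμ-Myc cells of C57BL/6 origin, that is, B-lineage lymphoma cells in which a Myc transgene is driven by the immunoglobulin heavy-chain enhancer. The first line, JQ1R, resists JQ1, an inhibitor of the BET bromodomain proteins that read acetylated histones, and the second, JQ1S, is sensitive to it. Early-passage cells of each line were grown in culture medium, and the labels name no drug in it. Each line gave 2 RNA sequencing libraries. Every comparison is therefore between 1 resistant and 1 sensitive line, so that resistance and any other difference between these lines cannot be told apart. Nothing in the labels says that the libraries of a line came from separate cultures, so p-values measure the spread between these libraries, which may be technical.

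The RAS-MAPK pathway carries signals from surface receptors, in B cells chiefly the antigen receptor and cytokine receptors, through RAS and the kinases RAF, MEK and ERK to transcription factors in the nucleus. Active ERK induces immediate early genes such as Egr1 and also the genes of its own inhibitors. SPRED and Sprouty proteins act upstream, at the level of RAS and RAF, and dual-specificity phosphatases remove the activating phosphates from ERK and related kinases. The mRNA levels of these genes are widely used as readouts of signalling through the pathway.

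Total counts were 10928239 and 11809635 in the resistant libraries and 13048103 and 10346007 in the sensitive libraries, and levels are given as CPM, counts scaled to a library total of 1000000 with TMM factors applied. All 10 markers of B-cell identity were detected in every library, with a summed level of 3948 to 4070 CPM in resistant and 3683 to 3747 CPM in sensitive libraries. By edgeR's test at an adjusted p of 0.05, 3 of these 10 markers were higher in resistant cells (Cd22, Blk and Vpreb3) and 0 lower, beside 2.2% of all tested genes higher and 1.52% lower, and their part in the results below was not tested. Markers of T cells, with 2 of 8 analysed, summed to 0.337 and 0.366 CPM in resistant and 0.194 and 0.539 CPM in sensitive libraries. Markers of erythroid cells, with 2 of 6 analysed, summed to 0.505 and 0.549 CPM in resistant and 0.539 and 0.680 CPM in sensitive libraries. Myeloid markers, with 5 of 10 analysed, summed to 5.31 and 5.56 CPM in resistant and 3.85 and 4.47 CPM in sensitive libraries. Csf1r, Cd14 and Mpo among them were below 0.5 CPM in every library. Most of each sum came from Cd68 and Itgam. Cd68 had means of 3.32 CPM in resistant and 2.85 CPM in sensitive cells, and Itgam of 1.53 and 1.14 CPM. Neither was called by edgeR, with adjusted p-values of 0.674 for Cd68 and 0.626 for Itgam. The part of the myeloid sums, which did not overlap between the lines, was not tested. The 6 stromal markers were not analysed here.

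Of the 6 members that could be tested, Spred2, Dusp5 and Kcnn4 were lower in resistant cells, and 0 members were higher. Resistant cells held 55.4% of the Spred2 level of sensitive cells, 60.3% of the Dusp5 level and 73.9% of the Kcnn4 level. Spred1, Dusp2 and Dusp6 did not pass the test. The threshold for a call was an adjusted p of 0.05 in edgeR's quasi-likelihood test, with Benjamini-Hochberg adjustment over 11945 tested genes. It was passed by 3.73% of those genes, 1.52% lower and 2.2% higher in resistant cells. The members were chosen with earlier results of these data known, so their count is a description and not a test of the group. All 6 tested members exceeded the filter on low counts, 0.880 CPM, in each of the 4 libraries, and Egr1 exceeded it in 0. In these bulk samples, fewer cells that express a gene and less RNA per cell cannot be told apart.

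**Figure D1:**
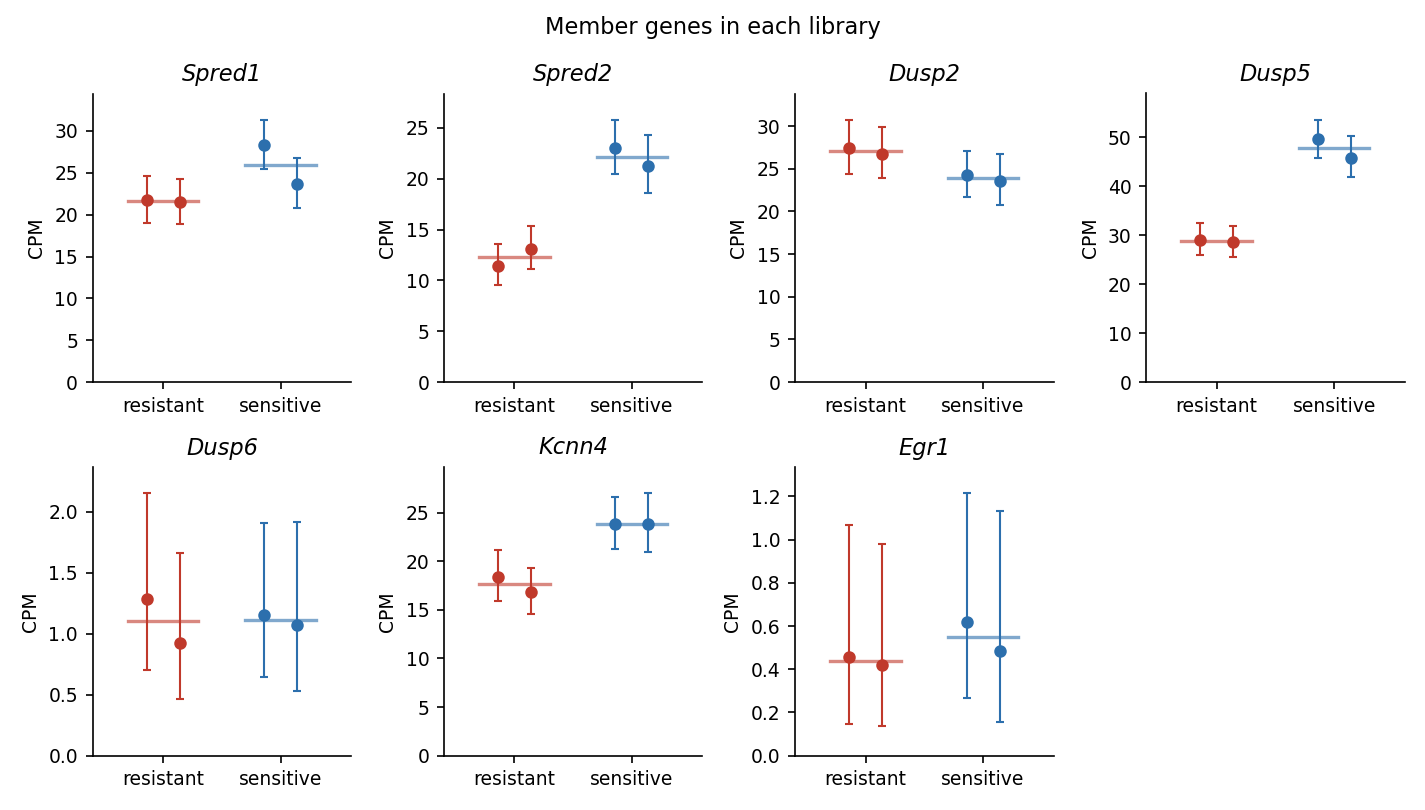
Level of each analysed member in CPM (vertical axes, linear from 0) in the 2 resistant (left, red) and 2 sensitive (right, blue) libraries. Points are libraries, whiskers the exact Poisson 95% interval of the count, which covers counting error only, and horizontal lines the group means. Spred2, Dusp5 and Kcnn4 are lower in both resistant libraries with whiskers apart for Spred2 and Dusp5, and Dusp6 and Egr1 lie near 1 CPM or below with wide whiskers.

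The sequences before the starts of the 3 genes that fell are shown with that of Dusp2, a relative of Dusp5 that did not pass the test, because they are the stretches in which promoter elements of the pathway would be looked for. Each is the 250 bases before the start annotated by RefSeq on GRCm38.p6, all on the plus strand, at chr11:19924192-19924441 for Spred2, chr19:53528895-53529144 for Dusp5, chr7:24370013-24370262 for Kcnn4 and chr2:127335909-127336158 for Dusp2. In GENCODE the starts of Spred2 and Dusp5 fall inside these windows. Capitals mark matches to any of 6 motifs, searched on both strands.
Spred2: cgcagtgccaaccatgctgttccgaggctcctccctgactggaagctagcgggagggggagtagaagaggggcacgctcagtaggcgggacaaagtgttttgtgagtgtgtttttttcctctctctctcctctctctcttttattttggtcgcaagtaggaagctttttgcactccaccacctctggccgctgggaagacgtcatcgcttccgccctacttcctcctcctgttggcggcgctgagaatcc
Dusp5: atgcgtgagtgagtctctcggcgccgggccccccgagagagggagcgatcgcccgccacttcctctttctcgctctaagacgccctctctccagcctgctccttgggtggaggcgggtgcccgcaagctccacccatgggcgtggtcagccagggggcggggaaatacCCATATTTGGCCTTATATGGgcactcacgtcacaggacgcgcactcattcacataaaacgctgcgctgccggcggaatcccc
Kcnn4: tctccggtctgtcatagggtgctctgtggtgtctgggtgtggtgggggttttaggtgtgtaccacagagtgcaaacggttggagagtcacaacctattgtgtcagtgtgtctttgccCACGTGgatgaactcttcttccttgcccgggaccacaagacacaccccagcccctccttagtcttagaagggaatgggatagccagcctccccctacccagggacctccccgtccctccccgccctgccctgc
Dusp2: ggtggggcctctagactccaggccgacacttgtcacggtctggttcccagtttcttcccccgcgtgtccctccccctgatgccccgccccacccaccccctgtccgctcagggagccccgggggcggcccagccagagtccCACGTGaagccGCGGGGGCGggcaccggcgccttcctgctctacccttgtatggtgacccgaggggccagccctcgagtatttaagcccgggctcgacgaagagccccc
The motifs were the ETS-site form CCGGAA, the AP-1 site TGANTCA, the cyclic AMP response element TGACGTCA and the EGR site GCGNGGGCG. The others were the E-box CACGTG that MYC and related factors bind, and the CArG box, the element bound by serum response factor. Dusp5 held 2 CArG boxes side by side, beginning 82 and 72 bases before the start, and no other motif of the set. A CArG box was present in 1.47% of the 32851 RefSeq windows of the same length. Kcnn4 held an E-box beginning 133 bases before the start, a motif present in 6.02% of windows. Dusp2 held an E-box beginning 109 bases and an EGR site beginning 98 bases before the start, the EGR site being present in 4.7% of windows. Spred2 held 0 of the 6 motifs in this window. The string CCGGAA, the AP-1 site and the cyclic AMP response element, present in 12%, 6.75% and 1.55% of windows, were found in none of the 4 sequences. Other forms of the ETS site were not searched, so the sequences are not shown to lack ETS sites. RefSeq windows were found for 8 members, and all of them were searched. Those of Spred1 and Dusp6, which are not printed, held no match. With 6 motifs searched in 8 windows, the share for a single motif does not give the chance of finding some match. A match describes letters only, and binding was not measured.

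Spred2 encodes a membrane-bound inhibitor that, like its relative SPRED1, brings the RAS GTPase-activating protein neurofibromin to RAS. The gene (ENSMUSG00000045671) lies on GRCm38 chromosome 11 at 19924375 to 20024026, with 4619 bases of merged exons. Spred2 was at 11.4 and 13.1 CPM in resistant libraries, against 23.0 and 21.3 CPM in sensitive libraries. Both resistant libraries were below both sensitive libraries, an order that 23.2% of tested genes showed, and the gap between the lines was wider than the gap within either. The means were 12.3 ± 1.19 CPM in resistant and 22.2 ± 1.25 CPM in sensitive cells (SD, n = 2 libraries each), a log2 change of -0.85 ± 0.12 (SE) with an adjusted p of 2.75e-04 (edgeR). The 95% interval of the change ran from -1.10 to -0.60. The call held in each of 13 alternatives, with log2 changes from -0.96 to -0.76.

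Spred1 encodes the other SPRED protein that was measured in depth, and lies on chromosome 2 at 117121374 to 117182279 (ENSMUSG00000027351). Spred1 was at 21.7 and 21.5 CPM in resistant libraries, against 28.3 and 23.6 CPM in sensitive libraries. Here too the resistant libraries were the lower ones, but the sensitive libraries differed from each other by 1.20-fold, about as much as the lines did. The log2 change was -0.28 ± 0.11 with an adjusted p of 0.187 (edgeR), an interval from -0.50 to -0.05 and an unadjusted p of 0.0197. Without sensitive replicate 2 the gene was called lower (-0.39, adjusted p = 0.00545, edgeR), and without sensitive replicate 1 the change was -0.13. The third gene of the family, Spred3, had too few counts to test, at 0.0915 and 0.505 CPM in resistant and 0.539 and 0.389 CPM in sensitive libraries.

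Ratios of related genes within a library do not depend on how libraries are scaled. There were 0.527 and 0.612 Spred2 counts per Spred1 count in the resistant libraries, against 0.815 and 0.901 in the sensitive libraries. There were 1.06 and 1.07 Dusp5 counts per Dusp2 count in the resistant libraries, against 2.04 and 1.94 in the sensitive libraries. Neither ratio overlapped between the lines, and 47.3% of tested genes taken singly showed such a separation in either direction. Each pair sets a gene called lower over a relative that was not called, so the ratios in part restate those calls. For both ratios the exact two-sided permutation test gave p = 0.333, the smallest value that 2 libraries against 2 allow, so the pairs are described and not shown to differ.

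**Figure D2:**
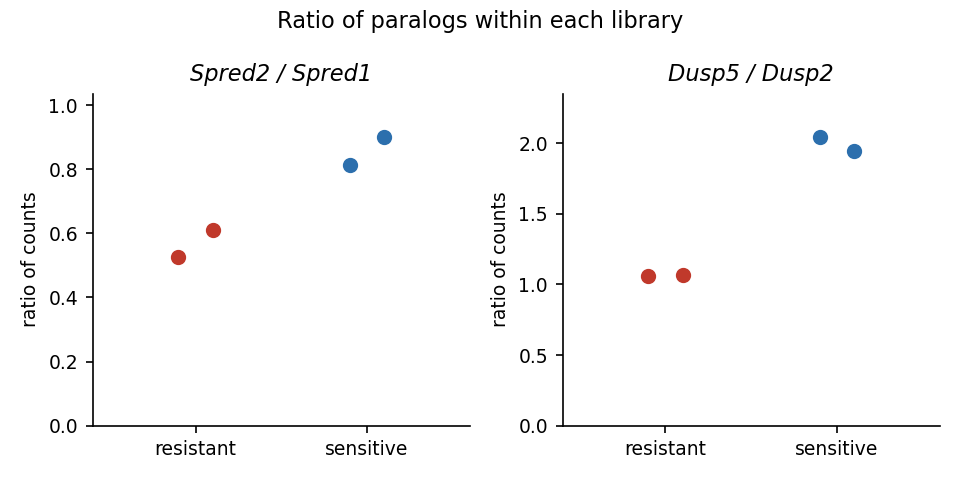
Counts of Spred2 divided by counts of Spred1 (left) and of Dusp5 divided by Dusp2 (right) in each library, on linear axes from 0. Points are the 2 resistant (red) and 2 sensitive (blue) libraries, and both ratios are lower in each resistant library, at 0.527 and 0.612 against 0.815 and 0.901 for the SPRED pair.

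The phosphatases among the members divided into a gene that fell and others that did not pass. Dusp5 encodes a nuclear phosphatase specific for ERK, which it also holds in the nucleus. The gene (ENSMUSG00000034765) lies on chromosome 19 at 53529109 to 53542431 and is the one with the paired CArG boxes in the sequence above. Dusp5 was at 29.1 and 28.6 CPM in resistant libraries, against 49.6 and 45.9 CPM in sensitive libraries. The resistant libraries were nearly equal, and both lay far below the sensitive ones, while 23.2% of tested genes had both resistant libraries lower. The means were 28.9 ± 0.35 CPM and 47.8 ± 2.66 CPM (SD, n = 2 each), and edgeR gave a log2 change of -0.73 ± 0.08 (adjusted p = 3.84e-05). The interval ran from -0.91 to -0.55, and all 13 alternatives called the gene lower, with changes from -0.78 to -0.67. In the annotation 22.1% of the exonic bases of Dusp5 overlap an antisense gene, AC137853.2, which was itself not analysed here. The strand setting of the counting is not given in the sources used here, so reads from the 2 genes cannot be told apart in the overlap.

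Dusp2, which encodes a nuclear phosphatase of activated lymphocytes (PAC-1), lies on chromosome 2 at 127336159 to 127338376 (ENSMUSG00000027368). Dusp2 was at 27.5 and 26.8 CPM in resistant libraries, against 24.3 and 23.6 CPM in sensitive libraries. The resistant libraries were slightly above the sensitive ones, without overlap, and 47.3% of tested genes showed such a separation in either direction. The log2 change was 0.18 ± 0.09 with an adjusted p of 0.357 (edgeR), and its interval, -0.02 to 0.37, spans changes from 0.986-fold to 1.30-fold. Its sign was positive in all 13 alternatives, and none called it, with adjusted p-values from 0.288 to 1.00 across edgeR, DESeq2 and limma-voom.

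Dusp6 encodes the cytoplasmic phosphatase of ERK that is among the most used readouts of the pathway, and it was scarcely expressed in either line. Its counts were 14 and 11 in resistant and 15 and 11 in sensitive libraries, or 1.28 and 0.926 CPM against 1.16 and 1.07 CPM, and the libraries of the lines overlapped. The log2 change of -0.03 ± 0.39 (adjusted p = 0.985, edgeR) had an interval from -0.86 to 0.81. Changes from 0.551-fold to 1.75-fold thus lie within the interval, which does not set the size of change that could be detected. The sign changed when some libraries were left out.

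Egr1, an immediate early transcription factor gene of the pathway on chromosome 18 at 34859823 to 34864984 (ENSMUSG00000038418), had 5 and 5 counts in resistant and 8 and 5 counts in sensitive libraries. These are 0.458 and 0.421 CPM against 0.617 and 0.486 CPM, with exact Poisson 95% intervals of 0.149 to 1.07 and 0.137 to 0.982 CPM against 0.266 to 1.21 and 0.158 to 1.13 CPM, which cover counting error only. The resistant libraries were the lower ones, but all 4 intervals overlapped. The gene was too low for the main test, and with no filter its log2 change was -0.34 with an adjusted p of 0.882 (edgeR). No difference in Egr1 was detected at this depth, and the size of change that could be detected was not determined.

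Kcnn4 encodes the intermediate-conductance calcium-activated potassium channel of lymphocytes, whose transcription is known to respond to MAPK signalling in activated T cells. The gene (ENSMUSG00000054342) lies on chromosome 7 at 24370263 to 24386690. Kcnn4 was at 18.4 and 16.8 CPM in resistant libraries, against 23.8 and 23.8 CPM in sensitive libraries. The sensitive libraries were alike, and both resistant libraries lay below them, an order that 23.2% of tested genes showed. The log2 change was -0.44 ± 0.10 with an adjusted p of 0.0249 (edgeR) and an interval from -0.66 to -0.22. The call was the weakest of the 3. It was lost in DESeq2, which called 1.62% of the genes to which it gave an adjusted p (-0.44, adjusted p = 0.404), and without resistant replicate 2 (-0.37, adjusted p = 0.301). In limma-voom, which called 3.69% of genes, it was kept, and the change lay between -0.50 and -0.37 over all 13 alternatives.

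**Figure D3:**
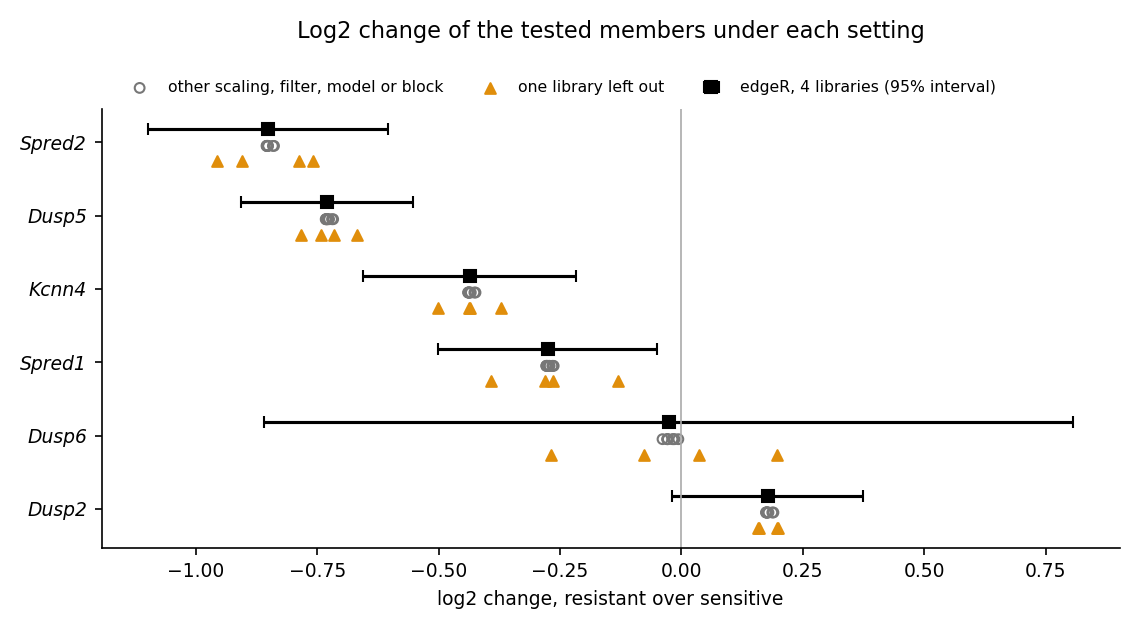
Log2 change, resistant over sensitive (horizontal axis), of the 6 tested members, from Spred2 at the top to Dusp2 at the bottom. Black squares with bars are the edgeR estimate from all 4 libraries and its 95% interval, open circles other scalings, filters, models and the replicate block, and orange triangles fits with a library left out. Spred2 and Dusp5 stay below -0.6 in every fit, whereas the fits for Dusp6 lie on both sides of 0.

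Set side by side per kilobase of merged exon, the member levels differed widely between genes. In resistant cells Dusp2 was highest at 13.5 CPM per kilobase, followed by Dusp5 at 11.7, Kcnn4 at 3.44, Spred1 at 3.18, Spred2 at 2.66, Dusp6 at 0.352 and Egr1 at 0.0980. In sensitive cells Dusp5 was highest at 19.3 CPM per kilobase, followed by Dusp2 at 12.0, Spred2 at 4.80, Kcnn4 at 4.66, Spred1 at 3.83, Dusp6 at 0.355 and Egr1 at 0.123. Dusp5 and Dusp2 thus stood in opposite order in the lines, and in each line their libraries did not overlap. In sensitive cells Spred2 and Kcnn4 did not differ beyond their spread, with Spred2 at 4.99 and 4.61 and Kcnn4 at 4.66 and 4.65 CPM per kilobase. Over all 4 libraries Dusp5 exceeded 70.3% of 11861 tested genes with a known length, Dusp2 65.1%, Kcnn4 36.2%, Spred2 34.3%, Spred1 33.0% and Dusp6 4.49%. These levels assume that every annotated exon of a gene is used.

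With all 4 libraries, the genes that carry the signal from receptor to ERK showed no called change. Among 17 tested receptor adaptors and RAS exchange factors 0 changed, with log2 changes from -0.14 to 0.16, and 1 had an unadjusted p below 0.05 (edgeR), beside 16.9% of all tested genes. That gene was Ptpn11, which encodes the phosphatase SHP2. Ptpn11 was at 202 and 199 CPM in resistant and 227 and 214 CPM in sensitive libraries (log2 change -0.14, adjusted p = 0.223 in edgeR). Leaving out sensitive replicate 2 brought its adjusted p to 0.0108. Sos1, a RAS exchange factor, had a log2 change of -0.10, and Rasgrp2, which activates RAP proteins, of -0.11, with adjusted p-values of 0.524 and 0.481 (edgeR).

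Of the 7 tested RAS GTPases reported here 0 changed and 0 had an unadjusted p below 0.05 (edgeR). Nras was at 82.4 and 92.6 CPM in resistant and 99.3 and 85.6 CPM in sensitive libraries (log2 change -0.08), the RAP gene Rap1a had a log2 change of 0.12, and Rras, near 1 CPM, of 0.63 ± 0.35, with adjusted p-values of 0.656, 0.354 and 0.391 (edgeR). Of 14 tested RAF, MEK and ERK kinases and scaffolds 0 changed and 0 had an unadjusted p below 0.05, with a median log2 change of -0.002 and a range from -0.20 to 0.28. Map2k2, which encodes an ERK-activating kinase, was at 109 and 108 CPM in resistant and 116 and 117 CPM in sensitive libraries, Map2k1 had a log2 change of 0.08 and the RAF activator Shoc2 of -0.14, with adjusted p-values of 0.392, 0.659 and 0.396 (edgeR). DESeq2 and limma-voom called 0 genes of these lists.

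Of the 9 RAS GTPase-activating proteins reported here, which return RAS to its inactive state, 0 were called by edgeR, by DESeq2 or by limma-voom with all 4 libraries. In edgeR 3 of the 9 had an unadjusted p below 0.05, beside 16.9% of all tested genes. Rasal1 was at 27.0 and 27.4 CPM in resistant libraries, against 21.7 and 23.2 CPM in sensitive libraries (log2 change 0.28, adjusted p = 0.131, edgeR). Dab2ip was at 64.5 and 60.9 CPM in resistant libraries, against 68.7 and 75.6 CPM in sensitive libraries (-0.20, adjusted p = 0.165, edgeR). Rasal2, at 0.549 and 0.589 CPM in resistant and 1.54 and 0.972 CPM in sensitive libraries, had a log2 change of -1.16 ± 0.46 with an adjusted p of 0.195 (edgeR). Rasal2 exceeded the filter of 0.880 CPM in the sensitive libraries alone, so it was tested through the line where it is high, and the direction of its change is in part set by the filter. For Rasal1 both resistant libraries lay above both sensitive ones, and for Dab2ip and Rasal2 both lay below, as did 23.2% of all tested genes, with 47.3% separated in either direction.

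The other MAP kinase phosphatases, which were not members, had 0 called genes among 4 tested. In edgeR 2 of the 4 had unadjusted p-values under 0.05, beside 16.9% of all tested genes, and neither DESeq2 nor limma-voom called any. Dusp1, an immediate early phosphatase, was at 2.93 and 4.71 CPM in resistant and 2.00 and 2.53 CPM in sensitive libraries, a log2 change of 0.78 ± 0.28 with an adjusted p of 0.151 (edgeR). The resistant libraries of Dusp1 were above the sensitive ones but differed between themselves by 1.61-fold. The change was called without resistant replicate 1 (1.07, adjusted p = 0.0363, edgeR) and without sensitive replicate 2 (0.94, adjusted p = 0.0415), and was 0.39 without resistant replicate 2. Dusp7, a cytoplasmic ERK phosphatase like Dusp6, was at 28.0 and 31.0 CPM in resistant and 34.5 and 36.2 CPM in sensitive libraries (log2 change -0.26, adjusted p = 0.142 in edgeR), and leaving out sensitive replicate 1 brought its adjusted p to 0.0327. Dusp16, which acts on the stress kinases JNK and p38, had a log2 change of -0.12 with an adjusted p of 0.505.

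The list of ERK-responsive and immediate early genes also held transcription factors and kinases of that response, and not every gene on it is induced by ERK. Of this list 26 genes could be tested, and 3 were lower in resistant cells and 0 higher. This 11.5% stands beside 3.73% of all tested genes, and the median log2 change of the list was -0.04, against 0.003 for all tested genes. The list was chosen with earlier results of these data known, so its share is a description and not a test. Ccnd3, a D-type cyclin, was at 80.5 and 79.4 CPM in resistant and 98.9 and 102 CPM in sensitive libraries (log2 change -0.33 ± 0.06, adjusted p = 0.00621, edgeR). Srf encodes serum response factor, which binds the CArG box and acts with ERK-activated partners.

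Srf was at 72.6 and 68.7 CPM in resistant libraries, against 84.9 and 91.0 CPM in sensitive libraries (log2 change -0.31 ± 0.07, adjusted p = 0.0150, edgeR). Id3, an inhibitor of E-protein transcription factors that is induced through ERK and EGR1 in developing lymphocytes, was at 21.7 and 25.7 CPM in resistant and 31.0 and 30.5 CPM in sensitive libraries (log2 change -0.37 ± 0.10, adjusted p = 0.0485, edgeR). For all 3 genes both resistant libraries lay below both sensitive ones, as did 23.2% of all tested genes. Without resistant replicate 1 all 3 calls were lost, with adjusted p-values of 0.0745 for Ccnd3, 0.0581 for Srf and 0.509 for Id3. Without resistant replicate 2, Ccnd3 (adjusted p = 0.128) and Srf (0.289) were not called. DESeq2 called Ccnd3 but not Srf (adjusted p = 0.107) or Id3 (0.476). Unadjusted p-values below 0.05 were given to 13 of the 26 genes, 9 lower and 4 higher, beside 16.9% of all tested genes.

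Of the 89 tested pathway genes outside the members that are reported here, 3 were called, 0 of them higher, a share of 3.37% beside the 3.73% of all tested genes. The count was 14 when sensitive replicate 1 was left out and 13 when sensitive replicate 2 was, where the spread comes from the resistant pair alone. These are 15.1% of 93 and 14.1% of 92 pathway genes tested in those fits, beside 11.3% and 9.68% of all tested genes. The names added were taken after their values were seen, and their directions are those over all 4 libraries. The first set added Rap1a and Ets1, higher in resistant cells, and Iqgap1, Dab2ip, Dusp3, Dusp7, Myc, Jund, Etv5, Ccnd1 and Orai2, lower. The second added Rasa3, Rasal1, Dusp1, Jun, Ets1 and Stim1, higher, and Nras, Ptpn11, Ccnd1 and Rps6ka1, lower. Counts of Myc cannot be split between the Myc transgene of these cells and the endogenous gene. With either resistant library left out the count was 1, where 2.45% (the first left out) and 2.21% (the other) of all tested genes were called. DESeq2 gave a count of 1, beside 1.62% of all genes it tested.

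**Figure D4:**
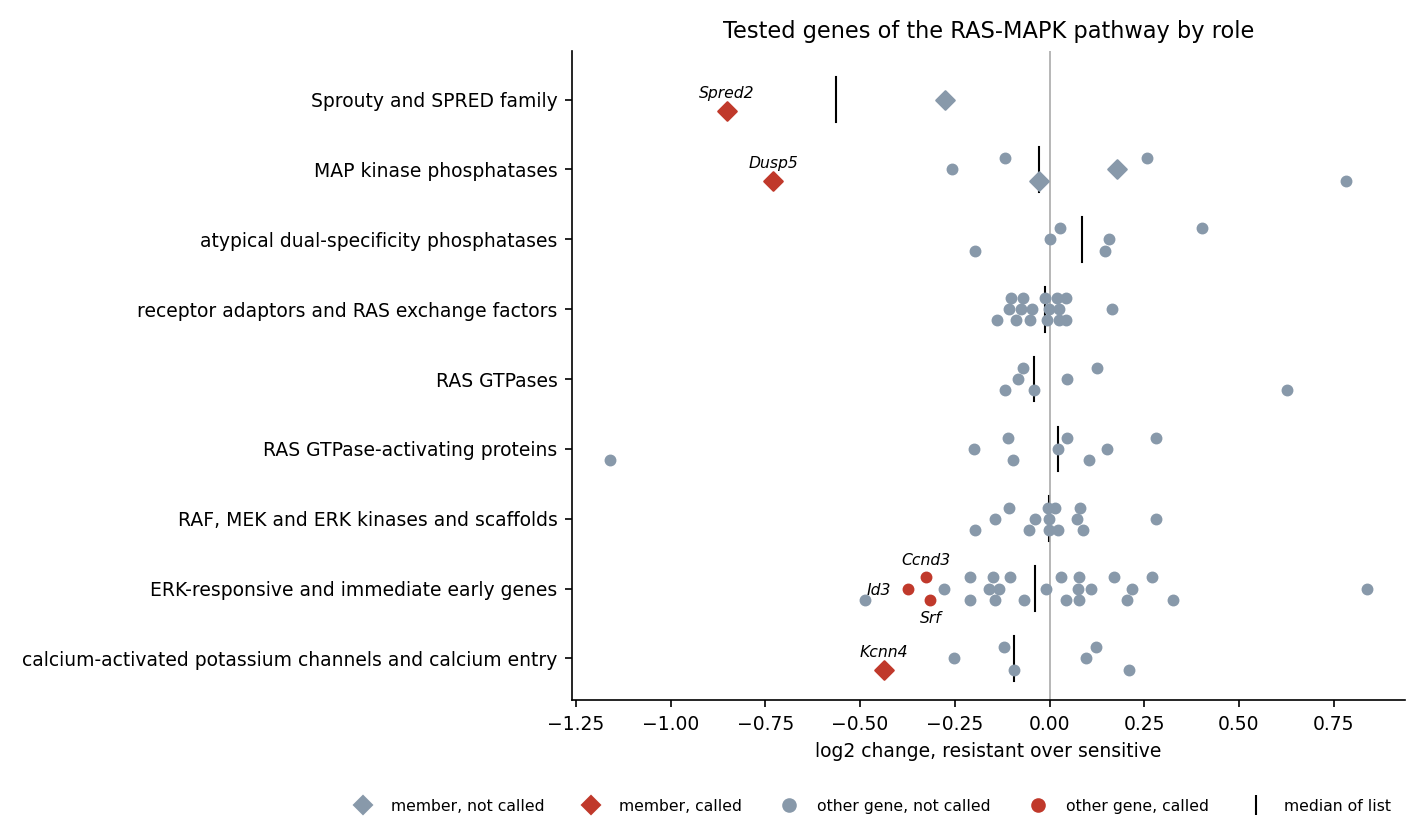
Log2 change, resistant over sensitive (horizontal axis), of the tested genes reported here in 9 lists of the pathway ordered by role from top to bottom. Diamonds are members and circles other genes, red marks genes called by edgeR (with symbols), and black bars are list medians. Called genes all lie left of 0, and none of the points plotted for adaptors, RAS GTPases and kinases is red.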

How the data were processed

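RNA sequencing covered 2 libraries of the JQ1R line and 2 of the JQ1S line, grouped by their titles. The values are raw, whole-number read counts for each Ensembl gene, as deposited by the authors. Per the submitters' processing notes FastQC, cutadapt 1.7, TopHat, Bowtie2, HTSeq and limma were named, with the builds GRCm38 and mm10, while the roles of these tools and the strand setting of the counting are not given in these sources.

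Symbols, positions and merged exon lengths came from GENCODE M21 (GRCm38), which matched 16407 identifiers and missed 184. Counts were fitted with edgeR 4.0.16 in R 4.3.3 (TMM factors, a model of group alone, filterByExpr with a minimum count of 10 and total of 15, Benjamini-Hochberg adjustment). Intervals of log2 changes are 95% intervals from the quasi-likelihood F statistic. Alternatives were 3 other scalings, scaling without the 20 genes of most counts and immunoglobulin genes, no filter or a minimum of 30, DESeq2 1.42.0, limma-voom (limma 3.58.1), a replicate block and each library left out. The fits were tested on simulated data.

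Promoter sequences came from RefSeq (GRCm38.p6). All members are named, and from each list the called genes or the up to 3 of smallest p. Spred3 is given as a relative. Some genes of the lists are not reported here, and the counts over lists leave them out. The members and lists were chosen with earlier results of these data known. Replicates of a line differed by more than sampling noise, with a chi-square per degree of freedom of 1.79 in the resistant and 4.05 in the sensitive pair, so none was counted as a duplicate.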

Additional observations from a re-analysis of the deposited data

How the results depend on the processing

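With TMM scaling and all 4 libraries, 445 of 11945 genes were called in edgeR, against 201 in DESeq2 and 270 to 1381 with a library left out. Of the members, 3 were called in that fit and 2 to 4 across all alternatives. The calls of Spred2 and Dusp5 held in all 13 alternatives. Other pathway genes numbered 3, against 1 in DESeq2 and 1 to 14 with a library left out. The sign of Dusp6 turned without resistant replicate 2 (0.20) and without sensitive replicate 1 (0.04), and its range with a library left out was -0.27 to 0.20. The call of Id3 was also lost with library-size scaling (adjusted p = 0.0656), upper-quartile scaling (0.0609) and the stricter filter (0.0532). The cause of these differences was not tested. By design, a left-out sensitive library leaves only the resistant pair to set the spread.

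Replicate numbers are shared by the lines, but the difference of replicate 1 minus 2 had a correlation of -0.02 between the lines across genes. The labels state no pairing, and a correlation over all genes cannot exclude one that acts on some of them. With the replicate block 595 genes were called, with 3 members (Spred2 at -0.85, Dusp5 and Kcnn4) and 3 other pathway genes, as without it. Low counts limit Dusp6 and Egr1.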

Other observations

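With all 4 libraries, genes next to the pathway showed no called change. Of 6 atypical dual-specificity phosphatases, which lack the kinase-binding part of the MAP kinase phosphatases, 0 changed by edgeR, by DESeq2 or by limma-voom. In edgeR 1 of them, Dusp3, had an unadjusted p under 0.05, beside 16.9% of all tested genes, and it was at 43.5 and 41.8 CPM in resistant and 46.9 and 51.2 CPM in sensitive libraries (log2 change -0.20, adjusted p = 0.205, edgeR). Dusp28 (0.40, adjusted p = 0.298) and Dusp22 (0.16, adjusted p = 0.510) had positive log2 changes that did not pass. Of 6 genes of calcium entry and potassium channels beside Kcnn4, 0 changed. The calcium-store sensor Stim1 was at 49.1 and 45.4 CPM in resistant and 39.9 and 41.8 CPM in sensitive libraries (0.21, adjusted p = 0.182, edgeR), and the calcium-entry channel gene Orai2 at 37.0 and 33.3 CPM in resistant and 41.0 and 42.8 CPM in sensitive libraries (-0.25, adjusted p = 0.125). These opposite log2 changes had 2 unadjusted p-values below 0.05 in edgeR, and DESeq2 and limma-voom called neither. Orai3, a further calcium-entry channel gene, had a log2 change of 0.12 with an adjusted p of 0.545.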
